A study of Mus musculus with 2 samples.

Results

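Toll-like receptors are germline-encoded sensors of microbial molecules and of nucleic acids, and Myd88 is the adaptor protein that most of them share. The genes described here are 9 receptors (Tlr1, Tlr2, Tlr3, Tlr4, Tlr6, Tlr7, Tlr9, Tlr12 and Tlr13) and Myd88. They were chosen by symbol, so 10 of the 32285 genes listed in both count matrices are described. No measured value was part of that rule, although earlier results of these data were known when the list was made. The samples are single-cell RNA libraries of mouse brain 8 weeks after intracranial grafting of KR158, a mouse glioblastoma line. The control library carried Cx3cr1 CreER/+ Plxnb2 fl/+ and is titled WT, although 1 of its Plxnb2 alleles is floxed. The cKO library carried Cx3cr1 CreER/+ Plxnb2 fl/fl. Both hosts had a C57BL/6 background, a tamoxifen-inducible Cre in 1 Cx3cr1 allele, and tamoxifen at 100 mg/kg from 3 days before the graft onward. Cx3cr1 drives that Cre in microglia and other Cx3cr1-expressing myeloid cells. The number of animals behind each library is not given in the sources used here, and with 1 library per genotype no test between genotypes is possible: genotype, animal and preparation cannot be told apart.

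Receptors at the cell surface (Tlr1, Tlr2, Tlr4 and Tlr6) detect lipids and lipopeptides of bacteria and fungi, while those in endosomes (Tlr3, Tlr7, Tlr9, Tlr12 and Tlr13) mainly detect nucleic acids. Myd88 links all of these receptors except Tlr3 to Irak kinases, Traf6 and NF-kB, whereas Tlr3 signals through the adaptor encoded by Ticam1, and Tlr4 uses both routes. In brain, microglia are the cells best known for these receptors, and Tlr3 is also known from astrocytes.

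On the mm10 build and GENCODE vM21 models, all 10 genes are protein-coding. The surface receptors lie at chromosome 5, 64924679 to 64933563, minus strand (Tlr1); chromosome 3, 83836272 to 83841767, minus strand (Tlr2); chromosome 4, 66827584 to 66930284, plus strand (Tlr4); and chromosome 5, 64952031 to 64960097, minus strand (Tlr6). Tlr3 lies at chromosome 8, 45395665 to 45411080, minus strand. Tlr7 and Tlr13 are on chromosome X, at 167304929 to 167330558 on the minus strand and 106143204 to 106160493 on the plus strand. Tlr9 lies at chromosome 9, 106222598 to 106226883, plus strand, and Tlr12 at chromosome 4, 128615443 to 128618619, minus strand. Myd88 lies at chromosome 9, 119335934 to 119341411, minus strand. It overlaps Acaa1a on the other strand, which had 476 control and 381 cKO UMIs in microglia-like cells, and Slc22a14 on the same strand, which had 0 and 0. Tlr3 overlaps the antisense model Gm45542, with 0 and 2 UMIs. Whether the counting used strand is not given in the sources used here. Tlr1 and Tlr6 are neighbours, 18467 bp apart, and share an exact stretch of 229 bases that ends 858 and 1797 bases before their transcript ends, so reads from that stretch cannot be assigned to 1 of them.

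RefSeq promoter windows on GRCm38.p6, the 250 bases before each start, were found for 8 of the 10 genes. They were searched on both strands for letters resembling an interferon-stimulated response element (GAAA, any 2 bases, GAAA), a PU.1 site (GAGGAAGT) and an NF-kB site (GGGA, any 2 bases, TTCC), since PU.1 is the myeloid lineage factor and the other elements are read by pathways downstream of these receptors. Of 10 windows, the 4 with a match are shown, each 5' to 3' on the gene's strand with the matched letters in capitals. Tlr1 and Tlr6 each had another window without a match, which is not shown.

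Myd88: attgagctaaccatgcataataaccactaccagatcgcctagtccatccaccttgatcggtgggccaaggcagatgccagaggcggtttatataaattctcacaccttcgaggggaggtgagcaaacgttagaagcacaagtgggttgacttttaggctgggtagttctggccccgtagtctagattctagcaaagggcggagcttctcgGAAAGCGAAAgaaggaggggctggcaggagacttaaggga

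Tlr3: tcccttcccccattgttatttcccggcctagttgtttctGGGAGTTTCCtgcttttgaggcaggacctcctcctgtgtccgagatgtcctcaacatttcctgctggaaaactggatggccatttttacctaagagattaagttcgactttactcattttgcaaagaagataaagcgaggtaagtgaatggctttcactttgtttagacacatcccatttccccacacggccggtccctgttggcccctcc

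Tlr1: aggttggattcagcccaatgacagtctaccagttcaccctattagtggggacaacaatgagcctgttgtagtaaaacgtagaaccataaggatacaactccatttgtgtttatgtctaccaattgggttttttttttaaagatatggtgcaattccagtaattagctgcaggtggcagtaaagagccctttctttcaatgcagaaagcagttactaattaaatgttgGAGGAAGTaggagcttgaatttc

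Tlr6: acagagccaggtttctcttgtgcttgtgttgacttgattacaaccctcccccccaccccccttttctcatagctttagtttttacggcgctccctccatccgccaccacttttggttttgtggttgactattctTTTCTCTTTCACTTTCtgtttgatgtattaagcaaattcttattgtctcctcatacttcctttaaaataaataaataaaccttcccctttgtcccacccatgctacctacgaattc

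The Myd88 window, chr9:119340019-119340268, minus strand, holds GAAAGCGAAA with its first base at -40 from the start. The Tlr3 window, chr8:45410381-45410630, minus strand, holds GGGAGTTTCC at -211. The printed Tlr1 window, chr5:64933559-64933808, minus strand, holds GAGGAAGT at -23. The printed Tlr6 window, chr5:64959167-64959416, minus strand, holds 2 overlapping matches to the first element on its reverse strand. Of 32851 RefSeq windows of this length, 2.98% held the first element, 2.44% the PU.1-like and 1.21% the NF-kB-like letters. A match describes letters alone and shows no binding.

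The control matrix held 64756949 UMIs (distinct tagged RNA molecules) in 10942 barcodes, and the cKO matrix 63785513 UMIs in 1513730 barcodes with a UMI. Filters kept 7624 control and 5206 cKO cells, which shared 8 barcode sequences. Of 31 clusters, 24 were named from marker genes that included none of the genes described here, and 9 classes had at least 50 cells in both libraries. No cluster was named as tumour cells or as monocytes or macrophages, so neither could be described. Plxnb2, the targeted gene, stood at 200.2 control and 36.8 cKO CPM (UMIs of the gene per 1e+06 UMIs of its class and library) in microglia-like cells, although 3' counts can come from transcript beyond the deleted exons and so do not measure recombination. In microglia-like cells the median depth was 3846 UMIs per control and 5262 per cKO cell, and rRNA-like gene models took 3.30% and 1.54% of UMIs. Choroid plexus-like cells, 357 control and 4 cKO, were not compared. Their marker Ttr stood at 1568 control and 1.16 cKO CPM in microglia-like and 1198 and 1.35 CPM in astrocyte-like cells. The libraries thus differed in the free RNA found in other classes, and its part in low-level ratios was not tested.

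For 7 of the 9 receptors, microglia-like cells held over 50% of the UMIs of kept cells in both libraries. The exceptions were Tlr3 and, in the cKO library, Tlr6 at 48.0%. There were 1389 control and 747 cKO microglia-like cells. All 12 microglial markers were detected in both clusters of this class. Microglia-like cells held 75.4% of control and 76.0% of cKO Tlr7 UMIs, 79.0% and 75.7% of Tlr13 UMIs, and 65.4% and 70.2% of Tlr2 UMIs among kept cells. Of Tlr3 UMIs, astrocyte-like cells held 73.0% and 65.9% of its UMIs. Myd88 was spread wider, with 36.0% and 33.6% in microglia-like and 19.6% and 37.4% in endothelial-like cells. These shares also move with the number and depth of cells of each class, and there were 838 control and 1210 cKO endothelial-like cells.

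**Figure D1:**
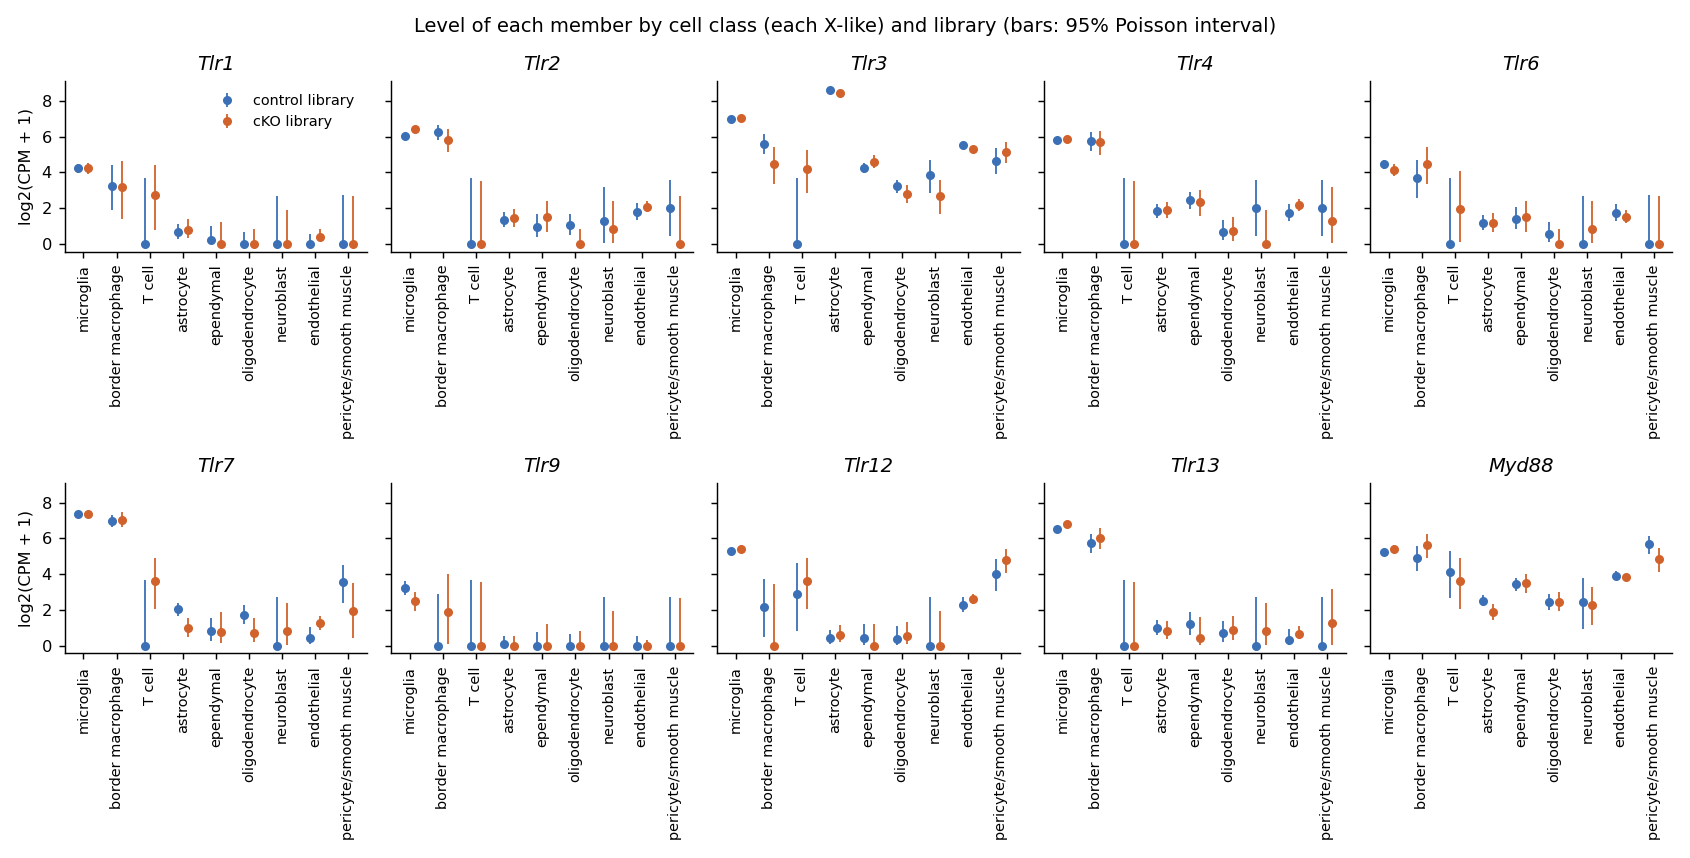
Level of each gene as log2(CPM + 1) in 9 cell classes, with control cells in blue and cKO cells in orange, and bars for the exact 95% Poisson interval. Tlr7, Tlr13, Tlr2 and Tlr4 are high in the microglia-like and border macrophage-like classes of both libraries, Tlr3 is highest in the astrocyte-like class, and Tlr12 reaches the pericyte-like or smooth-muscle-like class.

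The comparison of microglia-like cells asks whether receptor transcripts differ where Plxnb2 was targeted. Of the 10 genes, 0 counted as higher and 1, Tlr9, as lower in the cKO library. A gene counted when its CPM differed at least 1.5-fold with a 95% counting interval excluding equality, and it was measured with at least 20 UMIs over both libraries. By the same rule 4.23% of 11787 measured genes were higher and 5.45% lower. The count for the receptors is thus near the background and is no result about them. The median log2 ratio of the 10 genes, cKO over control, was 0.05, against -0.05 over all measured genes. Among the 8648 genes with mean levels in the range of the 10, 3.80% were higher and 4.59% lower.

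Among the surface receptors, Tlr2, which pairs with Tlr1 or Tlr6 to bind bacterial lipopeptides, stood at 64.0 CPM in control (369 UMIs) and 85.2 CPM in cKO cells (368 UMIs). Its log2 ratio was 0.41 (0.20 to 0.62), so the interval excludes equality while the size is under 1.5-fold. With a mitochondrial limit of 5% the ratio was -0.12, and 0.37 with that limit and every microglia-marked cluster included. In cells of 1000 to under 3000 UMIs the Tlr2 ratio was -0.95 (-2.04 to 0.0083), so its sign differed over depth. Its partners had intervals that include equality, and that of Tlr1 also includes the Tlr2 ratio. Tlr1 stood at 17.7 and 17.8 CPM (102 and 77 UMIs), a log2 ratio of 0.01 (-0.44 to 0.45). Tlr6 stood at 20.99 and 16.7 CPM (121 and 72 UMIs), a log2 ratio of -0.33 (-0.78 to 0.10). Tlr4, the receptor for bacterial lipopolysaccharide, was at nearly the same summed level in both libraries, with 56.0 and 56.2 CPM (323 and 243 UMIs) and a log2 ratio of 0.01 (-0.24 to 0.25). With cells thinned to 1000 UMIs the ratio was 0.55 for Tlr4 and -0.74 for Tlr1. Summed over the 4 surface receptors, the level was 158.7 CPM in control and 175.9 CPM in cKO microglia-like cells.

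Among the endosomal receptors, Tlr7, which binds single-stranded RNA, stood at 160 and 164 CPM (924 and 710 UMIs). Its log2 ratio was 0.04 (-0.11 to 0.18), the narrowest interval of the 10 genes, and that interval lies within 1.5-fold in both directions. Tlr3, which binds double-stranded RNA, stood at 125 and 130 CPM (719 and 563 UMIs), with a log2 ratio of 0.06 (-0.10 to 0.22). Tlr13, a mouse receptor for bacterial ribosomal RNA, stood at 90.9 and 111 CPM (524 and 481 UMIs). Like Tlr2, it had an interval that excludes equality at a size under 1.5-fold, with a log2 ratio of 0.29 (0.11 to 0.47). Tlr12, a mouse receptor for profilin of parasites, stood at 37.8 and 41.0 CPM (218 and 177 UMIs), with a log2 ratio of 0.12 (-0.18 to 0.41). Tlr9, which binds unmethylated CpG DNA, stood at 8.33 and 4.63 CPM from 48 and 20 UMIs, with a log2 ratio of -0.85 (-1.68 to -0.07). Tlr9 had a UMI in 3.17% of control and 2.54% of cKO microglia-like cells, so its ratio rests on few cells. With a mitochondrial limit of 5% the Tlr9 ratio was 0.10, and within the largest microglial cluster alone Tlr9 no longer counted as lower, at a ratio of -0.70. With the 5% limit and every microglia-marked cluster included, the ratio was -0.95 and Tlr9 counted as lower.

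Myd88 stood at 36.1 and 41.2 CPM (208 and 178 UMIs), with a log2 ratio of 0.19 (-0.11 to 0.49). Its microglial level did not pass the rule in either direction.

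**Figure D2:**
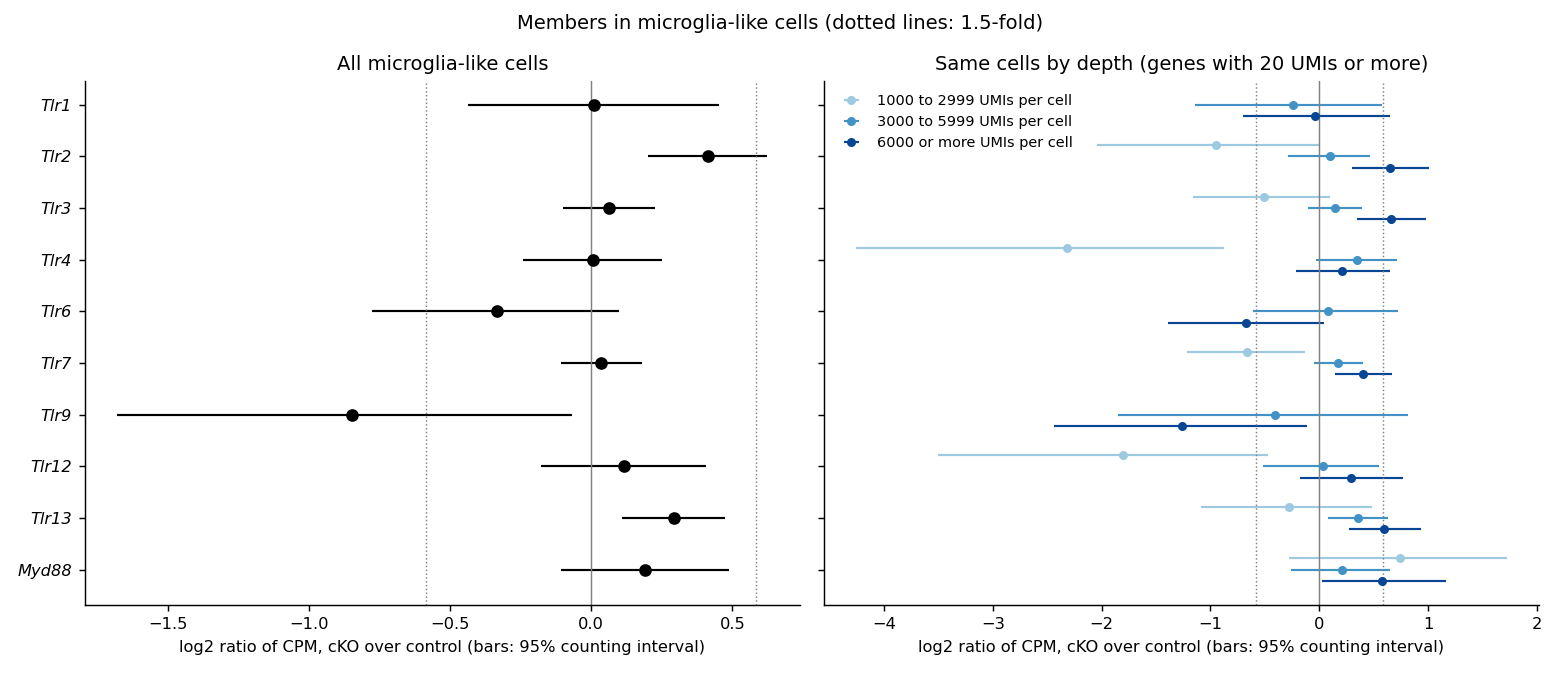
Log2 ratio of CPM, cKO over control, of each gene in all microglia-like cells (left) and in the same cells split by UMIs per cell (right, genes with at least 20 UMIs in that range), with 95% counting intervals and dotted lines at 1.5-fold. In all cells Tlr9 alone lies past the line with an interval clear of 0. Among cells of 6000 or more UMIs, Tlr2, Tlr3 and Tlr13 do so on the right and Tlr9 on the left. Among cells of 1000 to under 3000 UMIs, Tlr4, Tlr7 and Tlr12 do so on the left. There Tlr2, Tlr3 and Tlr13 also lie left of 0, with intervals that include it.

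The share of microglia-like cells with a transcript was compared after each cell was thinned to 1000 UMIs. A Tlr7 UMI was then found in 14.9% of control and 14.7% of cKO cells, a Tlr3 UMI in 12.2% and 12.3%, and a Tlr13 UMI in 8.14% and 9.91%. Without thinning the Tlr7 shares were 45.1% and 51.3%, and the Tlr13 shares 28.1% and 39.6%. At least 1 of the 9 receptors was found in 42.7% of control (95% exact binomial interval 40.1 to 45.3) and 44.0% of cKO microglia-like cells (40.4 to 47.7) after thinning, against 84.4% and 79.9% before. Thinned oligodendrocyte-like cells, taken as a class that should lack these receptors, gave 1.71% and 0.716% at unthinned median depths of 6393 and 7585 UMIs. At least 2 different receptors were found in 9.36% and 10.3% of thinned microglia-like cells. The intervals cover counting error only.

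The ratios were not uniform over depth. In cells of 6000 or more UMIs, 185 control and 296 cKO cells, Tlr2 stood at 62.1 and 97.8 CPM, a log2 ratio of 0.65 (0.31 to 1.01). Tlr3 stood there at 78.0 and 123 CPM (0.66, 0.35 to 0.98), and Tlr13 at 71.8 and 109 CPM (0.60, 0.27 to 0.93). These 3 genes counted as higher and Tlr9 as lower, against 5.51% higher and 3.38% lower over all measured genes in that range. Tlr7 moved the same way without reaching 1.5-fold, from 119 to 157 CPM. In cells of 3000 to under 6000 UMIs, 849 and 251, 0 of the 10 counted in either direction (background 4.15% higher and 3.83% lower). Tlr2 had a log2 ratio of 0.10 (-0.29 to 0.47) there and Tlr4 one of 0.35 (-0.03 to 0.72). After thinning, 4.48% of these control cells (3.19 to 6.09) and 12.4% of these cKO cells (8.55 to 17.1) had a Tlr4 UMI.

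In the shallowest microglia-like cells, of 1000 to under 3000 UMIs, other genes of the 10 counted, and as lower. Tlr4 stood at 61.5 and 12.3 CPM (48 and 4 UMIs), Tlr12 at 53.8 and 15.4 CPM (42 and 5 UMIs), and Tlr7 at 185 and 117 CPM (144 and 38 UMIs). These 3 of 7 measured genes counted as lower, but so did 17.5% of all measured genes in that range, and 0 counted as higher (background 5.58%). Tlr2, Tlr3 and Tlr13, which counted as higher in the deepest cells, had negative log2 ratios there and did not count. Those ratios were -0.95 (-2.04 to 0.0083), -0.51 (-1.16 to 0.10) and -0.27 (-1.08 to 0.48). Myd88 had the opposite sign there, at 29.5 and 49.2 CPM (log2 ratio 0.74, -0.28 to 1.72), and did not count. The range held 355 control and 200 cKO cells, of which 99 and 170 lay outside the largest microglial cluster. Within the largest cluster alone, the range held 256 control and 30 cKO cells, and 0 genes counted as lower (background 1.88%) while Myd88 counted as higher from 20 and 9 UMIs (background 4.01%). Between 3000 and 6000 UMIs in that cluster 0 of 10 counted as higher (4.46%) or lower (3.44%). Within that cluster at 6000 or more UMIs, Tlr2, Tlr3 and Tlr13 again counted as higher and Tlr9 as lower, against 5.37% and 3.5% of all measured genes. The part of depth in these ratios was not tested.

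In the cKO library, microglia-like cells with and without a UMI of Cdkn1a, the gene for the cell cycle inhibitor p21, were set side by side. Cdkn1a stood at 20.5 control and 661 cKO CPM in microglia-like cells, and 30 control cells had a UMI after thinning. The 244 cells with one had Tlr7 at 170 CPM and Tlr2 at 81.0 CPM, and the 503 cells without had 161 and 87.4 CPM, with overlapping intervals. Tlr6 stood at 24.6 CPM with and 12.4 CPM without (37 and 35 UMIs), with intervals that meet at 17.3 CPM. Tlr4 stood at 67.7 and 50.1 CPM, Tlr1 at 12.6 and 20.6 CPM, and Tlr9 at 1.99 and 6.04 CPM (3 and 17 UMIs). The intervals of Tlr4, Tlr1 and Tlr9 overlapped between the 2 sets of cells. Cells with at least 2 UMIs of 10 interferon-induced genes numbered 147 and had Tlr3 at 140 CPM and Tlr7 at 129 CPM, against 128 and 173 CPM in the other 600. The Tlr3 intervals overlapped, and those of Tlr7 did not (106 to 155 against 159 to 188). A cell without a UMI after thinning can hold one in its full counts. The part of depth in these levels was not tested.

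Border macrophage-like cells, the resident macrophages of brain surfaces and vessels, were few, with 126 control and 70 cKO cells. They carried Tlr7 at 125 and 131 CPM, Tlr2 at 75.4 and 56.1 CPM, Tlr4 at 53.1 and 50.7 CPM, and Tlr13 at 51.4 and 64.1 CPM. Each of these levels has an interval that overlaps between the libraries. Tlr12 set this class apart from microglia-like cells, with 2 and 0 UMIs, or 3.43 CPM (0.42 to 12.4) and 0 CPM (up to 9.85 by the Poisson interval), against 37.8 and 41.0 CPM in microglia-like cells. Of the 6 measured genes, 0 counted as higher (background 5.16%) and 0 as lower (3.78%). Tlr3 had a log2 ratio of -1.17 from 28 and 8 UMIs and did not count, although it did under some alternatives given below. Myd88 stood at 29.1 and 48.1 CPM from 17 and 18 UMIs (log2 ratio 0.72, -0.32 to 1.77).

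Tlr8, a receptor for RNA degradation products that is not among the 10 genes, showed the reverse of Tlr12. It had 25 control and 14 cKO UMIs in border macrophage-like cells, or 42.9 and 37.4 CPM, and 0 UMIs in microglia-like cells of either library, which the Poisson interval limits to 0.64 and 0.85 CPM. In these libraries 92.6% of control and 93.3% of cKO Tlr8 UMIs came from border macrophage-like cells. Tlr5, the flagellin receptor, was found in both classes, at 13.7 and 21.4 CPM in border macrophage-like and 7.46 and 6.25 CPM in microglia-like cells. Tlr11, which pairs with Tlr12, had 2 and 1 UMIs in microglia-like cells.

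Tlr3 was highest in astrocyte-like cells. Control cells had 396 CPM from 4877 UMIs (385 to 407), and cKO cells 350.5 CPM from 2847 UMIs (338 to 364), a log2 ratio of -0.17 (-0.24 to -0.11), under 1.5-fold. After thinning, 30.8% of control and 27.0% of cKO astrocyte-like cells had a Tlr3 UMI, against 74.5% and 70.2% without, and 1.17% and 0.358% of thinned oligodendrocyte-like cells. The order of its levels ran from astrocyte-like over microglia-like (125 and 130 CPM) to endothelial-like cells (46.0 and 37.9 CPM). Border macrophage-like (48.0 and 21.4 CPM), pericyte-like or smooth-muscle-like (24.3 and 34.9 CPM) and ependymal-like cells (18.2 and 23.4 CPM) followed, with intervals that overlap their neighbours in at least 1 library. Neuroblast-like (13.3 and 5.31 CPM) and oligodendrocyte-like cells (8.40 and 5.99 CPM) were lowest with T cell-like cells (0 and 17.2 CPM, from 0 and 6 UMIs). The cKO barcodes with the fewest UMIs, described further below, had Tlr3 at 63.0 CPM. That is above its cKO level in every class listed here after microglia-like cells. The control library has no such barcodes, and the part of free RNA in the levels of those classes was not tested.

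Within the astrocyte-like class Tlr3 also varied between clusters. Cluster 2, led by Gm44257 and Gm31614, had 465 control and 397 cKO CPM, and cluster 1, led by Gm31614 and Ppp1r3g, had 396 and 344 CPM. Cluster 5, led by the angiotensinogen gene Agt, had 337 and 342 CPM, a smaller gap between libraries than in the other 2, with no test of that difference. Cluster 16, led by Cnmd and Thbs4, had 153 and 132 CPM, the lowest of the astrocyte-like clusters with at least 30 cells in both libraries. Cluster 23, led by the interferon-induced chemokine gene Cxcl10, had 559 CPM in 38 cKO cells and 915 CPM in 6 control cells, the highest Tlr3 levels of any cluster. Cluster genes were selected from the same cells, so this is a description.

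Tlr12 and Myd88 differed within the vascular classes. In pericyte-like cluster 14, led by Kcnj8, Tlr12 stood at 43.4 control and 58.2 cKO CPM from 10 and 18 UMIs, levels whose intervals include those of microglia-like cells. In smooth-muscle-led cluster 19, with Acta2 as its first gene, Tlr12 had 0 UMIs in 73 control and 71 cKO cells. Among endothelial-like clusters Tlr12 stood at 9.52 and 11.2 CPM in cluster 7, but at 0.929 and 0.538 CPM in cluster 4 and 0 and 3.04 CPM in cluster 12. Cluster 7 was led by the pericyte gene Rgs5. It had 8 of 9 pericyte or smooth muscle markers detected in control and 9 in cKO cells and a median of 16394 UMIs per cell, and the part of mixed droplets in its Tlr12 level was not tested.

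**Figure D3:**
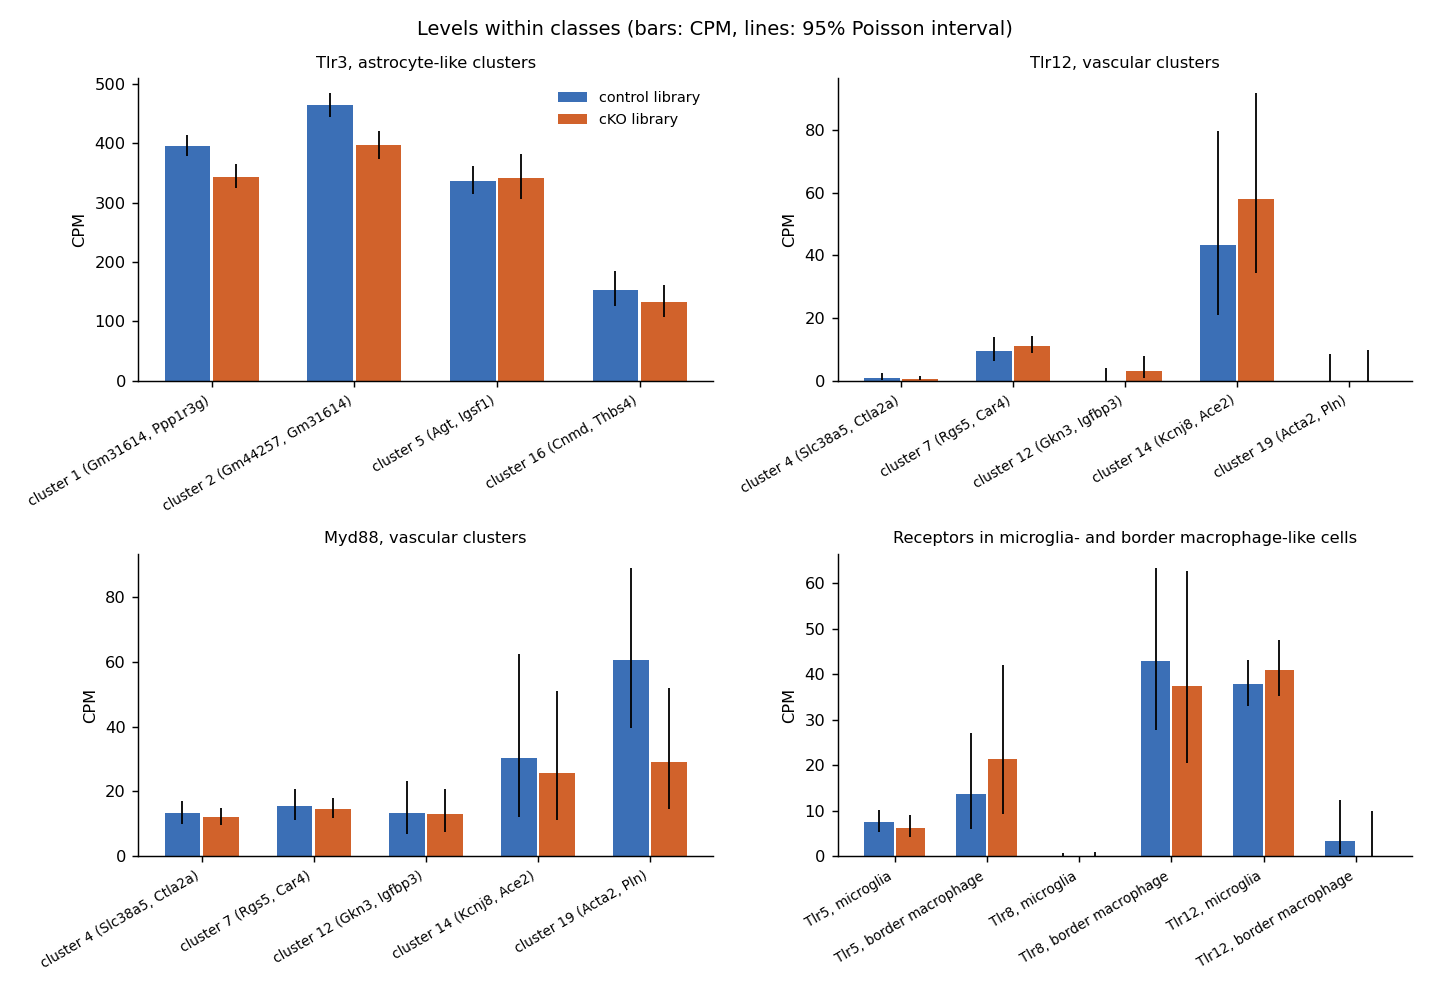
CPM with 95% Poisson intervals, control in blue and cKO in orange, of Tlr3 in 4 astrocyte-like clusters, of Tlr12 and Myd88 in 5 vascular clusters, and of Tlr5, Tlr8 and Tlr12 in microglia-like and border macrophage-like cells. Tlr3 is lowest in cluster 16, Tlr12 is highest in cluster 14 and at 0 in cluster 19, and Tlr8 and Tlr12 take opposite places in the 2 macrophage classes.

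Myd88 in the pericyte-like or smooth-muscle-like class stood at 50.1 control and 27.6 cKO CPM (33 and 19 UMIs). Its log2 ratio of -0.86 (-1.76 to -0.0033) made it the 1 gene of 3 measured that counted as lower there (background 2.99%). Cluster 19 had 60.7 and 29.0 CPM (26 and 11 UMIs) and cluster 14 had 30.4 and 25.8 CPM (7 and 8 UMIs), with no test between them. In cluster 19 the 9 endothelial markers summed to 44.3 control and 1551 cKO CPM, with 1 and 7 of them detected, and their part in the Myd88 ratio was not tested. With a mitochondrial limit of 5% the ratio was 0.60, and the call was also lost with a floor of 2000 UMIs, doublet calls ignored, Leiden resolution 2.0, a mitochondrial limit of 20%, thinning or a 2-fold call. There 0 counted as higher (background 5.53%). Endothelial-like cells had Myd88 at 14.0 and 13.2 CPM (log2 ratio -0.09, -0.43 to 0.26) and ependymal-like cells at 9.91 and 10.2 CPM. The cKO barcodes with the fewest UMIs, described further below, had Myd88 at 13.3 CPM. The part of free RNA in the endothelial-like and ependymal-like levels was not tested.

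In ependymal-like cells 0 of 3 measured genes counted as higher (background 3.74%) or lower (1.95%), and in oligodendrocyte-like cells 0 of 2 (1.58% and 5.06%). In T cell-like and neuroblast-like cells no gene of the 10 reached 20 UMIs, so none was measured, while 4.58% and 2.28% of measured genes counted as higher and 3.46% and 3.28% as lower.

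The other counts outside microglia-like cells rest on low levels. In astrocyte-like cells 0 of 6 measured genes counted as higher (background 2.61%) and 2 as lower (background 4.52%): Tlr7, at 3.08 and 0.985 CPM (38 and 8 UMIs, log2 ratio -1.65), and Myd88, at 4.70 and 2.71 CPM (58 and 22 UMIs, log2 ratio -0.80). Oligodendrocyte-like cells, the class used as background, had Tlr7 at 2.29 and 0.642 CPM and Myd88 at 4.43 and 4.50 CPM. In endothelial-like cells 0 of 7 measured genes counted as lower (background 4.03%) and 1 as higher (background 2.15%), which was Tlr7 at 0.373 and 1.40 CPM (3 and 21 UMIs). Whether these levels are background or expression was not tested. The 12 microglial markers summed to 944 and 730 CPM in astrocyte-like, 544 and 312 CPM in oligodendrocyte-like and 1307 and 1281 CPM in endothelial-like cells, and their part in these ratios was not tested. Both astrocyte-like calls and the endothelial-like call were lost when cells were thinned to 1000 UMIs.

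Other genes of the pathway were described from 6 lists with 56 genes, of which 47 were measured in microglia-like cells. Of these 4 counted as higher and 3 as lower, with a median log2 ratio of -0.01. The shares of all measured genes were the 4.23% and 5.45% given above. The median thus lay near the -0.05 of all measured genes, and the 7 genes that counted are described by their roles.

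The list of pathway inhibitors held 3 of the 4 higher genes. Nfkbia, whose product holds NF-kB in the cytoplasm, stood at 453 and 828 CPM (log2 ratio 0.87, 0.80 to 0.94). Nfkbiz, a nuclear protein of the same family that was listed with the inhibitors, stood at 45.6 and 103 CPM (1.18, 0.96 to 1.41). Dusp1, a phosphatase that switches off stress kinases, stood at 252 and 404 CPM (0.68, 0.58 to 0.78). Irak3, at 4.51 and 1.39 CPM (26 and 6 UMIs, -1.70, -3.27 to -0.39), was the lower member. Of the 9 measured genes of this list 3 counted as higher (background 4.23%) and 1 as lower (5.45%), with no test of the list. Whether feedback on the pathway differed was not tested. Tnfaip3, an NF-kB feedback gene in this list, had 62.6 and 87.0 CPM (0.47, 0.26 to 0.69) and did not count. With a mitochondrial limit of 5%, microglia-marked clusters stayed unnamed, among them 1 of 48 control and 228 cKO cells led by Gdf15, Hcar2 and Tnf. The ratios of Nfkbia, Nfkbiz and Dusp1 in the cells still named were then 0.10, 0.42 and -0.15. With that limit and every microglia-marked cluster included they were 0.96, 1.28 and 0.79.

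Irf7, the interferon regulatory factor that acts behind Tlr7 and Tlr9 and is itself induced by interferon, had the highest ratio of the lists. It stood at 4.34 control and 30.8 cKO CPM (25 and 133 UMIs), a log2 ratio of 2.83 (2.20 to 3.51). It was higher in other classes too, with log2 ratios of 4.74 in oligodendrocyte-like (1 and 19 UMIs), 3.59 in ependymal-like, 2.42 in astrocyte-like, 2.33 in pericyte-like or smooth-muscle-like, 1.78 in endothelial-like and 0.97 in T cell-like cells. The 7 other transcription factors measured, among them Nfkb1, Rela, Irf3 and Irf8, did not count, with Irf8 at 419 and 398 CPM. In border macrophage-like cells Irf7 had 48.0 and 74.8 CPM and did not count.

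Among co-receptors, chaperones and trafficking genes, 2 of 9 measured genes counted as lower (background 5.45%) and 0 as higher (4.23%). Cd14, the surface co-receptor that hands lipopolysaccharide to Tlr4, stood at 261 and 156 CPM (1504 and 674 UMIs), a log2 ratio of -0.74 (-0.88 to -0.61). Lbp, the lipopolysaccharide-binding protein gene, stood at 4.51 and 0.926 CPM (26 and 4 UMIs, -2.28, -4.26 to -0.76). Lbp was at 633 and 616 CPM in ependymal-like cells, its highest class, and 3.66 and 0.428 CPM in oligodendrocyte-like cells, so its microglial level is near background. Ly96, the Tlr4 partner that contacts lipopolysaccharide, had 61.4 and 48.4 CPM (-0.34, -0.60 to -0.09). Unc93b1, which carries the endosomal receptors out of the endoplasmic reticulum, stood at 771 and 766 CPM (-0.01, -0.07 to 0.06).

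Of the adaptors and kinases, 0 of 18 measured genes counted as higher (background 4.23%) or lower (5.45%), with log2 ratios from -0.32 to 0.42. Ticam1, the adaptor of Tlr3, stood at 9.19 and 12.3 CPM (53 and 53 UMIs), and Tirap, the bridge between Myd88 and surface receptors, at 19.9 and 18.1 CPM. Irak4, the first kinase recruited by Myd88, stood at 16.7 and 14.6 CPM, and Traf6 at 14.6 and 13.2 CPM. Among other receptors that use Myd88, Il1rap and the interleukin-33 receptor gene Il1rl1 were measured and did not count.

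**Figure D4:**
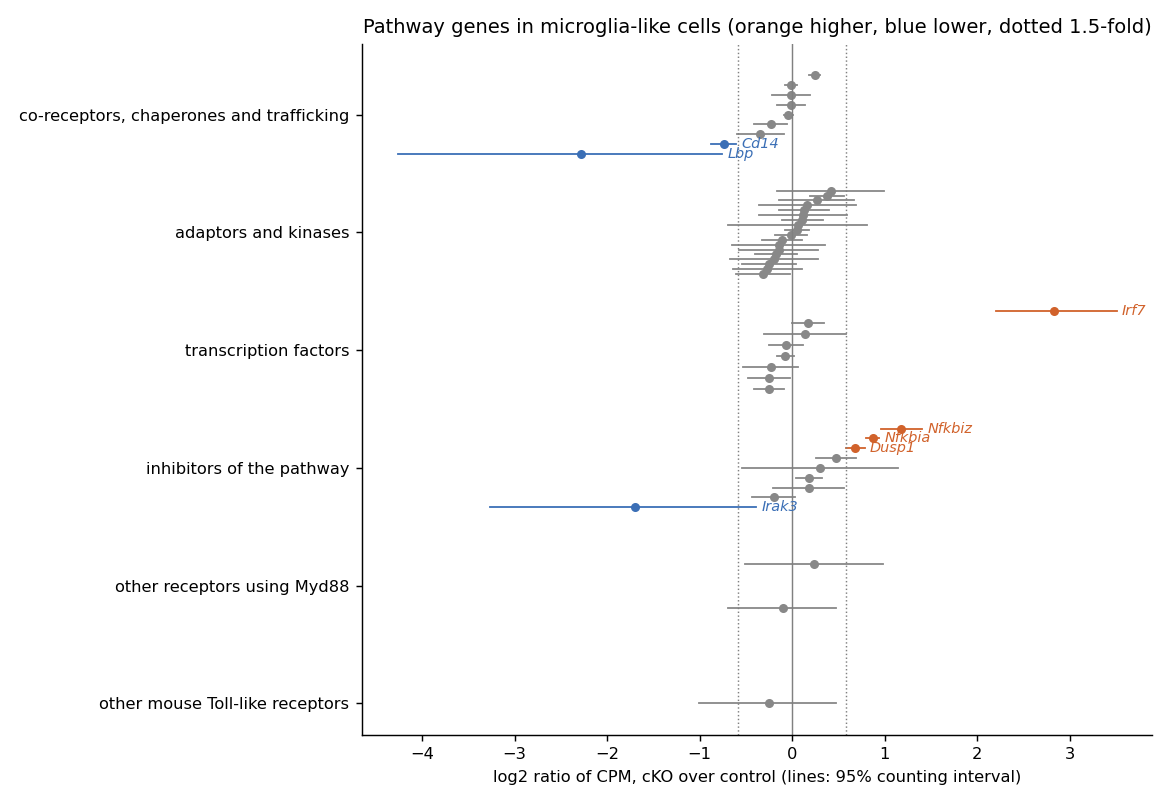
Log2 ratio of CPM, cKO over control, of the 47 measured pathway genes in microglia-like cells by list, with 95% counting intervals, orange for higher, blue for lower and grey for neither, and dotted lines at 1.5-fold. Irf7 at 2.83 stands apart on the right, Nfkbia, Nfkbiz and Dusp1 of the inhibitor list are past the line, and the adaptors and kinases lie between the lines.

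The genes most like each receptor were ranked by Pearson's r of log2(CPM + 1) over 19 sums of class and library, which share libraries and differ in depth. Tlr13 was most like Lrrc25 (r = 0.99), Tlr2 most like the chemokine gene Cxcl16 (0.98), Tlr7 most like Cryba4, Ccl9 and Btk (0.97 each), Tlr4 most like Pgd (0.97), and Tlr6 most like P2ry6 (0.95). Tlr3, with its astrocyte and microglia levels, was most like Dagla (0.91), Tlr12 most like Asb2 (0.92), and Myd88 most like Capzb (0.95). Tlr1 was most like Iqgap3 (0.99) and Tlr9 most like Gm3667 (0.98), although both receptors had few UMIs.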

How the data were processed

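The authors deposited 2 single-cell 3' libraries as unnormalized UMI counts, made with Cell Ranger 7.1.0 on mm10 per the submitters' processing notes. No annotation release, intronic-read setting or strand setting was found in those notes, the labels or the file headers. In the files, the control matrix was already filtered to barcodes of at least 500 UMIs, while the cKO matrix was not filtered.

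Kept cells had at least 1000 UMIs, at least 500 genes and at most 10% mitochondrial UMIs. Doublets were called in each library with Scrublet at an expected 6%: 5.50% of control and 3.56% of cKO cells were marked and left out. Cells of both libraries were clustered together in scanpy 1.11.5 on log counts per 10000, with 2000 variable genes, 30 components, 15 neighbours and Leiden resolution 1 (leidenalg 0.10.2). The 10 genes described and the pathway genes were left out of the variable genes and of the 22 marker sets. Naming a cluster took 3 or more markers that were found in 10% or more of its cells and were 2-fold above other clusters. The 7 clusters without a name held 668 control and 444 cKO cells.

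For each class, the UMIs of a library's cells were added up. Ratios are cKO over control of CPM, with exact conditional Clopper-Pearson 95% intervals. CPM values carry exact Poisson intervals. A call needed 1.5-fold, an interval excluding equality and at least 20 UMIs over both libraries. The genes named were the members, every called pathway gene and the genes most like each member, and further pathway genes were named after their values were seen. On simulated sums, 94% and 87.2% of genes with log2 ratios of 1 and -1 were called. The members and gene lists were chosen with earlier results of these data known. Other thresholds, scalings and cell sets were tried as alternatives. The software was pandas 2.3.3, scipy 1.17.1 and numpy 2.4.6 under Python 3.11.15.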

Additional observations from a re-analysis of the deposited data

Results flagged for a closer look

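Tlr7 differed in opposite directions between classes, with a log2 ratio of 1.91 in endothelial-like cells (3 and 21 UMIs) and -1.65 in astrocyte-like cells (38 and 8 UMIs). The difference between the classes was not tested. Both levels were low, and oligodendrocyte-like cells held 15 control and 3 cKO Tlr7 UMIs.

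Cd14 was higher in cKO border macrophage-like cells, at 228 and 558 CPM (log2 ratio 1.29, 0.97 to 1.62), and lower in microglia-like (-0.74), astrocyte-like (-2.12) and oligodendrocyte-like cells (-2.90). The astrocyte-like value rests on 33 and 5 UMIs and the oligodendrocyte-like value on 21 and 2. The difference between border macrophage-like and microglia-like cells was not tested, and there is 1 library per genotype behind it.

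In the cKO library, barcodes of 1 to 100 UMIs, which no comparison between libraries used, held 3917906 UMIs and carried all 10 genes described. The levels were 63.0 CPM for Tlr3, 24.0 for Tlr2, 21.7 for Tlr7, 13.3 for Myd88, 12 for Tlr13, 9.19 for Tlr4, 8.17 for Tlr12, 5.87 for Tlr1 and 2.30 for Tlr6. Tlr9 had 2 UMIs there, under the limit that a count of 0 allows. The control matrix holds no such barcodes, so this signal has no counterpart to compare.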

How the results depend on the processing

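No paired analysis was possible because there is 1 library per group. The 1 member lower in microglia-like cells, Tlr9, became 0 with a floor of 2000 UMIs, a mitochondrial limit of 5%, doublet calls ignored, Leiden resolution 0.5, a mean of at least 20 CPM or a 2-fold call, and 0 in the largest microglial cluster alone. The 1 member higher in other classes became 0 with a floor of 500 UMIs, mitochondrial limits of 5% and 20%, doublet calls ignored, Leiden resolutions 0.5 and 2.0, thinning to 1000 UMIs or a mean of at least 20 CPM, and 2 with no filter on UMIs. With a floor of 2000 UMIs the count stayed 1, but endothelial-like Tlr7 was lost and Tlr3 of the pericyte and smooth muscle class entered. The 3 lower in other classes became 0 with a mitochondrial limit of 5% or thinning, 1 with a limit of 20%, a mean of at least 20 CPM or a 2-fold call, and 5 with Leiden resolution 0.5 or no filter on UMIs. Myd88 of the pericyte and smooth muscle class was also lost with a floor of 2000 UMIs, doublet calls ignored and Leiden resolution 2.0, and oligodendrocyte-like Tlr3 entered in the last 2. Border macrophage-like Tlr3 entered as lower with Leiden resolution 0.5 and with scaling by the median of ratios. It also entered with mitochondrial, rRNA-like, haemoglobin and choroid plexus genes left out of the total. Pathway genes higher in microglia-like cells, 4 as reported, were 1 with a mitochondrial limit of 5% and 2 with a 2-fold call, and the 3 lower were 1 with that limit, with thinning or with a mean of at least 20 CPM. Thinning lost Dusp1 and added Tbk1 as higher, the mean of 20 CPM lost Irf7, and the 2-fold call lost Nfkbia, Dusp1 and Cd14. With a mitochondrial limit of 5% together with every microglia-marked cluster, members in other classes were 0 higher and 0 lower; that alternative and the largest cluster alone were chosen after seeing the data. Among ratios that had counted, those reversed were Myd88 in astrocyte-like cells at 0.27 with thinning, Tlr9 at 0.10 and Dusp1 at -0.15 in microglia-like cells with a mitochondrial limit of 5%, and Myd88 of the pericyte and smooth muscle class at 0.60 with that limit, with or without the unnamed microglia-marked clusters. Ratios that had not counted changed sign too, among them Tlr2 in microglia-like (-0.12) and endothelial-like cells (-0.51) and Tlr3 of the pericyte and smooth muscle class (-1.15) at the 5% limit, and Tlr2 in border macrophage-like cells (0.85) and Tlr12 of the pericyte and smooth muscle class (-0.31) with thinning. At 5% several microglia-marked clusters stayed unnamed, 1 of them with 48 control and 228 cKO cells; beyond that the cause was not tested. Depth limits Tlr9, Tlr1 and Tlr6 most, with 20 to 121 UMIs per library in microglia-like cells.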

Other observations

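A cycling cluster with 12 of 12 microglial markers detected, led by Ccnb2 and Plk1, held 51 cKO cells and 1 control cell and stayed unnamed. In its cKO cells Tlr13 stood at 90.8 CPM, Tlr7 at 76.4 CPM, Tlr2 at 66.1 CPM and Tlr3 at 53.7 CPM. A low-depth cluster with the same markers, at a median of 1394 UMIs per cell, held 376 control and 151 cKO cells and had Tlr7 at 254 and 352 CPM and Tlr13 at 122 and 219.7 CPM. A cluster of 15 control and 14 cKO cells led by the neutrophil genes S100a9 and S100a8 had 7 and 5 Tlr2 UMIs and 5 and 10 Tlr13 UMIs, and 0 Tlr3 UMIs in either library.

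In border macrophage-like cells Nfkbia (log2 ratio 0.96, 0.71 to 1.202), Nfkbiz (1.43, 0.94 to 1.93) and Dusp1 (1.17, 0.95 to 1.40) of the inhibitor list were higher in the cKO library, as in microglia-like cells. Nfkbia (0.90) and Nfkbiz (2.74, from 2 and 14 UMIs) were also higher in the class of pericytes and smooth muscle. In astrocyte-like cells the 3 ratios were 0.09, 0.19 and 0.07. The difference between the classes was not tested.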
